A study of Homo sapiens with 12 samples.

Results

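The brakes on division that immortalized cells can escape include the p53 pathway, the RB pathway and the loss of chromosome ends. Described here are 9 genes of these pathways: CDKN2A, CDKN2B, RB1, CDKN1A, MDM2, GADD45A, SESN1, TP53I3 and TERT. They were chosen by name, and 13 of the 34127 non-control probes on the array carry 1 of these names. MDM2 has 3 probes, CDKN2A and TP53I3 have 2 each, and the other 6 genes have 1 each. All 9 were among the 15718 genes tested, each through its brightest probe among those that stood well above background in the 2 arrays of some group. CDKN2B met that condition through the IL-1β arrays alone.

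RNA came from the human proximal tubule lines HK-2, immortalized with papillomavirus genes, and RPTEC/TERT1, immortalized with telomerase. Each line was grown in its own medium, so line and medium cannot be told apart, and the papillomavirus genes were not analysed here. After 24 h of starvation, cells of both lines received no ligand (control), interleukin-1β (IL-1β, an inflammatory cytokine) at 10 ng/mL, or empagliflozin (Empa, an inhibitor of the kidney glucose transporter SGLT2) at 500 nM for a further 24 h. The 6 groups of line and treatment have 2 arrays each, from biological replicates by their labels, and the 12 arrays lie on 4 slides that each hold the control, IL-1β and Empa array of 1 line and replicate number.

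The RB protein holds the E2F transcription factors in check until kinases of the cell cycle inactivate it. The inhibitors p16, encoded by CDKN2A, and p15, encoded by CDKN2B, block those kinases, and a further reading frame of CDKN2A encodes ARF, which restrains MDM2. MDM2 marks p53 for breakdown, and p53 that escapes it switches on CDKN1A, GADD45A, SESN1, TP53I3 and MDM2 itself. The papillomavirus proteins E6 and E7 remove p53 and inactivate RB, and raised p16 is a known mark of papillomavirus-transformed cells, whereas TERT encodes the catalytic subunit of telomerase, which rebuilds chromosome ends.

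The slides pair across their labels. The control array of the slide labelled HK-2 replicate 1 was most like that of RPTEC/TERT1 replicate 2, with a Pearson r of 0.984 over 15329 probes well above background everywhere. That of HK-2 replicate 2 was most like that of RPTEC/TERT1 replicate 1, with 0.973. Within a labelled line r was lower, 0.880 for HK-2 and 0.875 for RPTEC/TERT1. An r across probes does not count as a set of independent replicates. The source-name field gives HK-2 for all 12 arrays, and slides of the same replicate number were scanned on the same day, each in a scan of its own. Values are therefore given by labelled slide, and the control array of the same slide serves as the reference for the IL-1β and Empa arrays.

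A level is the log2 of the background-subtracted signal over the 75th percentile of its array, so that 0 marks a probe as bright as that percentile. Levels of different genes are not compared, since probes differ in how well they bind. The scanner software called no spot of the 9 genes saturated, and the number of arrays limits the precision. Of the 13 probes, 4 are shown, those of CDKN1A and TP53I3 and the dimmer probe of CDKN2A, because these genes carry the between-slide and p53 results. Each has 60 bases, written 5′ to 3′ with positions on hg19, and the capitals mark the longest run shared with a probe of any other gene on the array. Over all 13 probes this run had 12 to 16 bases.
CDKN2A A_33_P3411628, chr9:21970901-21970960, minus strand: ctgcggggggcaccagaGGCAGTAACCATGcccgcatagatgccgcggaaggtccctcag
CDKN1A A_24_P89457, chr6:36652178-36652237, plus strand: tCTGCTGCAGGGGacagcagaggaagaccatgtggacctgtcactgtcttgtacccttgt
TP53I3 A_23_P5392, chr2:24300615-24302356, minus strand, crossing an intron: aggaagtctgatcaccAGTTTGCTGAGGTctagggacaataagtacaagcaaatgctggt
TP53I3 A_33_P3392077, chr2:24300504-24300563, minus strand: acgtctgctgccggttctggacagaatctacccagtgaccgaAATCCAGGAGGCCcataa

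Leaving out CDKN2B, which was well above background on no control array, CDKN2A had the widest range of the 9 genes over these arrays. Its brighter probe, at chr9:21968039-21968098, had a log2 level of 1.68 on the slide labelled HK-2 replicate 1, 5.52 on HK-2 replicate 2, 5.24 on RPTEC/TERT1 replicate 1 and 1.40 on RPTEC/TERT1 replicate 2. The levels were high on the slides labelled RPTEC/TERT1 replicate 1 and HK-2 replicate 2 and low on the other pair, with a range of 4.12, or 17.4-fold. The dimmer CDKN2A probe, whose sequence is shown, gave the same order, at −2.09, 3.43, 3.09 and −2.58 on the same 4 slides, a range of 6.01 or 64.4-fold. The labelled lines overlapped entirely: the mean log2 level of the brighter probe was 3.60 ± 2.72 (SD, n = 2) in HK-2 control and 3.32 ± 2.71 (SD, n = 2) in RPTEC/TERT1 control. In bulk RNA, fewer cells of a kind and less RNA per cell cannot be told apart.

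The treated arrays showed the same order of CDKN2A. With IL-1β the brighter probe stood 3.78 higher on the log2 scale on HK-2 replicate 2 than on HK-2 replicate 1, and 3.59 higher on RPTEC/TERT1 replicate 1 than on RPTEC/TERT1 replicate 2. With Empa these differences were 2.99 and 3.42. The 6 arrays of the high pair thus lay between 4.92 and 5.76, and the 6 of the other pair between 1.40 and 2.07.

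TP53I3, a p53 target that encodes a quinone oxidoreductase, had the opposite order. Its brighter probe had a control level of 2.52 on HK-2 replicate 1, −0.15 on HK-2 replicate 2, −0.29 on RPTEC/TERT1 replicate 1 and 2.22 on RPTEC/TERT1 replicate 2, a 7.04-fold range. The second TP53I3 probe, which crosses an intron, gave the same order with a 6.87-fold range. SESN1, a stress-induced gene of the sestrin family, followed the order of TP53I3 with control levels of −1.09, −3.22, −2.72 and −1.74 on the same slides, a 4.39-fold range. CDKN1A, the gene of the cell cycle inhibitor p21, also did so, at −1.88, −2.81, −3.09 and −2.25, a 2.32-fold range. With IL-1β, TP53I3, SESN1 and CDKN1A kept that order, and with Empa TP53I3 did. CDKN1A with Empa was 0.53 higher on the log2 scale on HK-2 replicate 2 than on HK-2 replicate 1. It was 0.09 higher on RPTEC/TERT1 replicate 1 than on RPTEC/TERT1 replicate 2. For SESN1 with Empa the first of these differences was 0.17 and the other was −0.85.

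GADD45A, a growth arrest and DNA damage gene, had the order of CDKN2A instead, with control levels of 1.00, 2.19, 2.19 and 1.14 on HK-2 replicates 1 and 2 and RPTEC/TERT1 replicates 1 and 2. The 2 lower and the 2 higher of these levels were 2.28-fold apart at most. RB1, the gene of the RB protein, varied least with CDKN2B again left out, between 1.42 and 1.78, or 1.28-fold. MDM2 spanned 0.74 on the log2 scale at the probe used in the fit and 0.62 at another probe. Its remaining probe spanned 0.44 as computed, but was not well above background on the control array of RPTEC/TERT1 replicate 2. TERT was dim, with control levels of −3.53, −3.40, −3.44 and −4.23, and the last of these was not well above background. The TERT probe lies at chr5:1253305-1253364, and whether it detects the transgene of RPTEC/TERT1 cells was not tested. CDKN2B was well above background on 0 of 4 control arrays.

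**Figure D1:**
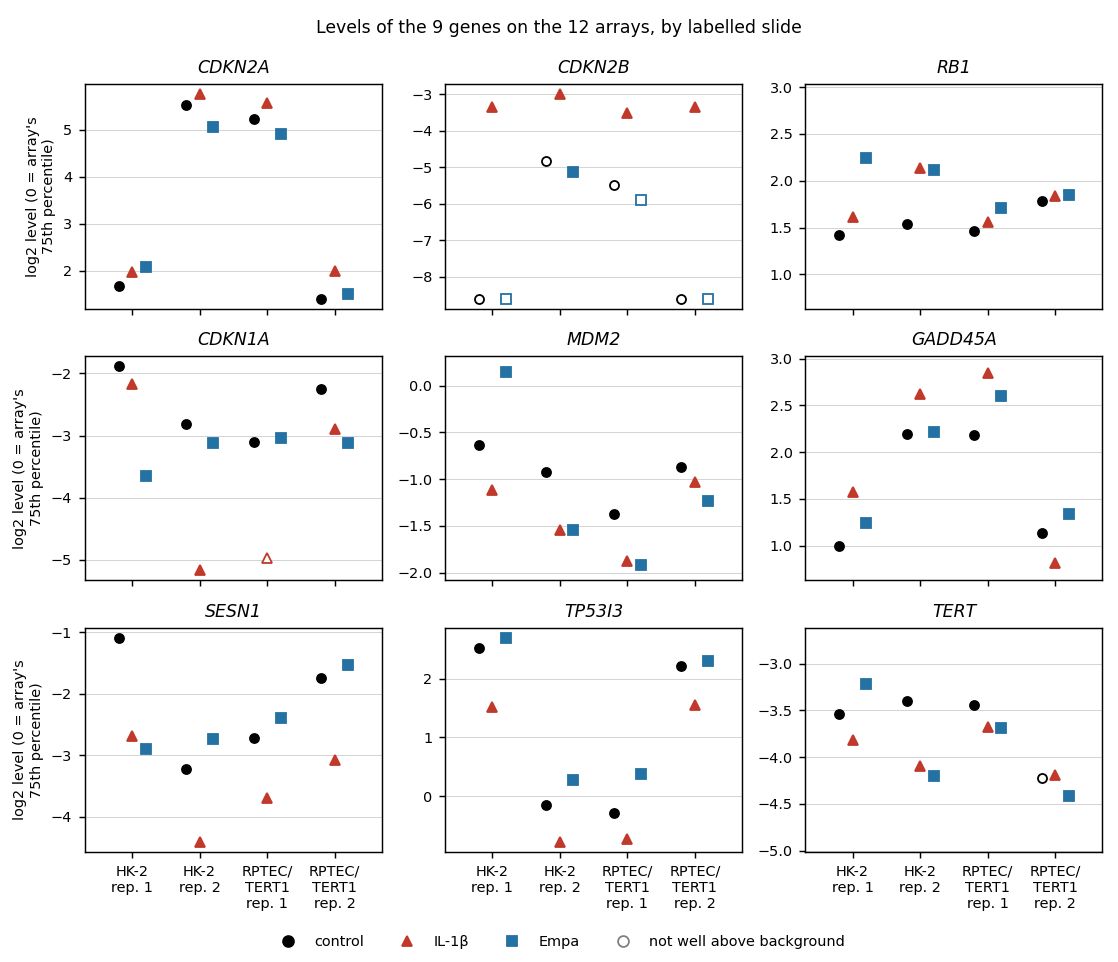
Log2 level of each of the 9 genes on the 12 arrays, relative to the 75th percentile of the array, by labelled slide, with 1 point per array and no error bars. Open points were not well above background. CDKN2A is high on the slides labelled RPTEC/TERT1 replicate 1 and HK-2 replicate 2, between 4.92 and 5.76, where TP53I3 is low.

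Whether the labelled lines differ was asked with limma in the control arrays. The difference of RPTEC/TERT1 minus HK-2 passed the adjusted threshold of 0.05 for 0 of the 9 genes and for 0 of 15718 genes, a share of 0%, while 188 genes had an unadjusted p under 0.05. CDKN2A differed by −0.28 on the log2 scale with a standard error (SE) of 2.18, and TP53I3 by −0.23 with an SE of 1.45, each at an adjusted p of 1 in limma. The differences of all 9 genes lay between −0.37 for TERT and 0.14 for RB1. These are differences between labels, and whether labels were exchanged between slides cannot be told from these arrays. The direction rested on single arrays for 8 of the 9 genes, all but MDM2. Without the control array of HK-2 replicate 2 the CDKN2A difference was 1.64, and without that of RPTEC/TERT1 replicate 2 it was also 1.64. For TP53I3 it was 1.11 without the control array of HK-2 replicate 1 and 1.03 without that of RPTEC/TERT1 replicate 1. With the slide as a random block 0 genes passed in limma and 101 had an unadjusted p under 0.05. With the crossed pairs as a block, a setting chosen after seeing the data, 0 genes passed in limma and 516 had an unadjusted p under 0.05.

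The E2F target genes, which serve DNA replication and mitosis and which RB keeps silent, had control levels in the order of CDKN2A. In 26 of 26 such genes the 2 brightest control arrays were those of HK-2 replicate 2 and RPTEC/TERT1 replicate 1, against 4980 of all 15718 genes, or 31.7%. Their median range over the control arrays was 3.89 on the log2 scale, against 1.06 over all genes. The replication genes CDC6 and GINS2, with the widest ranges as computed, were well above background on only 2 of the control arrays, so no exact range is given for them. The same pair was brightest in 10 of 18 genes of the RB pathway, where RBL1, an RB relative, had a range of 2.83 and E2F7, an E2F repressor, was well above background on only 2 control arrays.

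Not all of these genes were tested, since a gene bright on slides of different labels fails the filter by group. The activating factors E2F1 and E2F2, the cyclin genes CCNE2, CCND2 and CCNA2 and the topoisomerase gene TOP2A were each well above background on 6 arrays, with 2 control arrays among them, but not on both arrays of any group. E2F1 had control levels of 0.48 on HK-2 replicate 2 and 0.33 on RPTEC/TERT1 replicate 1, and was not well above background on the other control arrays. E2F8 was too dim, and CDK6, MCM6 and TYMS lacked a value on at least 1 array.

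Most listed p53 targets other than the 9 genes lay the other way. In 22 of 35 of them the 2 brightest control arrays were those of HK-2 replicate 1 and RPTEC/TERT1 replicate 2, against 5486 of all genes, or 34.9%, and 8 of 35 had the opposite pair brightest. Their median control range was 1.31 on the log2 scale, and RRM2B, a ribonucleotide reductase subunit, had one of 4.07. TNFRSF10C, a decoy receptor for the death ligand TRAIL, was well above background on 3 of the control arrays, so no exact range is given for it. In the p53 network the pair of HK-2 replicate 2 and RPTEC/TERT1 replicate 1 was brightest in 6 of 10 genes, led by the checkpoint kinase genes CHEK2, with a range of 2.99, and CHEK1, with 1.99. These counts describe the order of 4 arrays and carry no test.

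**Figure D2:**
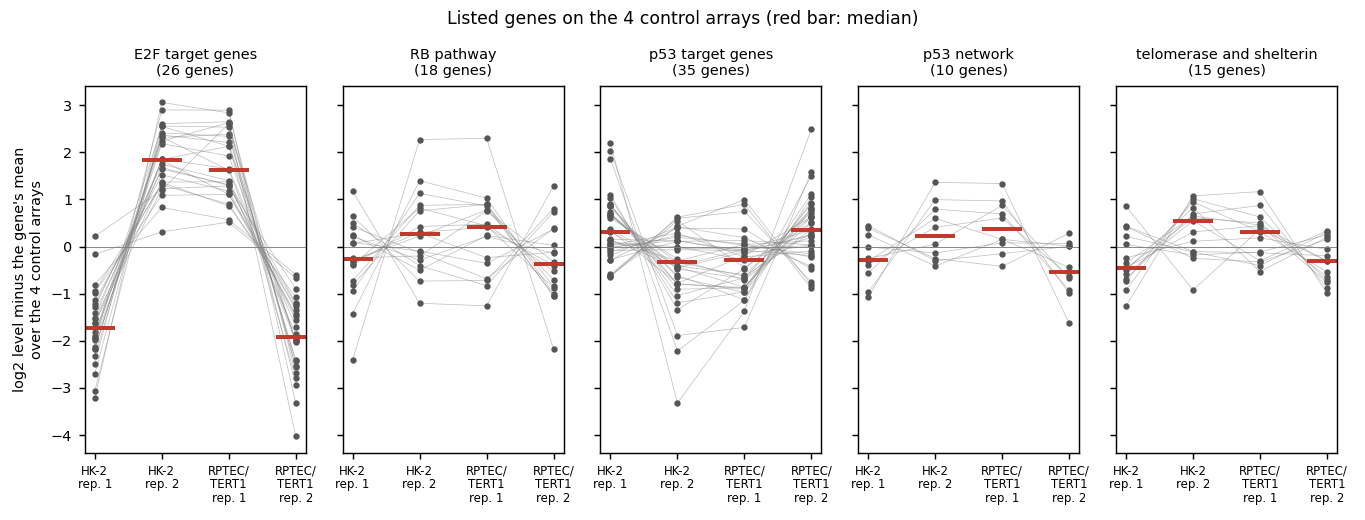
Log2 level of listed genes on the 4 control arrays, each gene relative to its own mean over these arrays, with 1 line per gene and a red bar at the median of the list. The median of the 26 E2F targets lies at −1.92 and −1.72 on the slides labelled RPTEC/TERT1 replicate 2 and HK-2 replicate 1, and at 1.64 and 1.84 on RPTEC/TERT1 replicate 1 and HK-2 replicate 2.

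Genes for telomere upkeep had medians in the order of CDKN2A. Of the 15 tested genes of telomerase and of shelterin, the protein cap of chromosome ends, 8 had HK-2 replicate 2 and RPTEC/TERT1 replicate 1 as the brightest control arrays, against 31.7% of all genes, and 3 had the other pair. The median range of this list was 1.26 on the log2 scale, against 1.06 over all genes, with the most for DKC1, a core telomerase protein gene, at 2.43 and for the helicase gene RTEL1 at 1.94. The telomerase gene NOP10 lacked a value on at least 1 array. Beside CDKN2A on chromosome 9, the neighbours DMRTA1 and MTAP had ranges of 0.92 and 0.81. EZH2 and ETS2, transcription regulators linked to CDKN2A, had ranges of 2.90 and 2.23, and the paralogs SESN2 and GADD45G ranges of 1.82 and 1.504.

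Some markers of tissue type moved with the same slides. Of 10 kidney epithelium markers, 10 were well above background on the control arrays of HK-2 replicate 1 and RPTEC/TERT1 replicate 2, but only 8 on the others. Their summed signal, in units of the 75th percentile, was 242 and 254 on the first pair and 64.4 and 77.8 on RPTEC/TERT1 replicate 1 and HK-2 replicate 2, with the probe of CDH16, EPCAM or KRT7 the brightest. The sums serve to set slides side by side for 1 cell type, not genes or cell types. Of 14 proximal tubule markers, 7 to 10 were well above background on a control array, with summed signals of 14.7 to 19.6, and CUBN, SLC22A6, HNF4A and VIL1 were so on no array. The brightest of these probes was that of DPP4 on HK-2 replicate 1 and RPTEC/TERT1 replicate 2. It was that of MIOX on HK-2 replicate 2 and RPTEC/TERT1 replicate 1. Of 5 distal nephron markers, SLC12A1 was well above background on RPTEC/TERT1 replicate 2 and HK-2 replicate 1, with sums of 32.1 and 21.1 against 0.0442 and 0.0562 on the others, and SLC12A3, CALB1, AQP2 and SCNN1B were on no array. Of 7 fibroblast markers, 1 to 3 were well above background on a control array, with sums of 9.99 and 9.81 on HK-2 replicate 2 and RPTEC/TERT1 replicate 1 against 0.197 and 0.169. The probe of DCN was the brightest on the first pair, only 1 of the 3 tested fibroblast markers had that pair as its brightest, and COL1A2 and PDGFRB were on no array. Of 4 podocyte, 5 endothelium and 5 leukocyte markers, 2, 1 to 2 and 2 to 3 were well above background on a control array. The leukocyte sums were 0.764, 2.68, 2.35 and 0.442 on HK-2 replicates 1 and 2 and RPTEC/TERT1 replicates 1 and 2, with the probe of CD68 the brightest, and WT1, PECAM1, KDR and TEK were so on no array. The part of these markers in the levels of the 9 genes was not tested.

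Each IL-1β array was set against its slide's own control, to ask which of the 9 genes respond to the cytokine. CDKN2B was higher, and SESN1 and TP53I3 were lower, each on 4 of 4 slides. SESN1 and TP53I3 passed the adjusted threshold of 0.05 in limma, where 12.5% of all genes did. CDKN2B passed as well, but it met the filter through the IL-1β arrays alone and so had to differ. Of all genes, 744, or 4.73%, were higher and 1220, or 7.76%, were lower, a split that became 981 and 955 with normexp background correction and quantile normalization. The number of the 9 genes that passed was not tested against that share.

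The calls depended on the slide as a block and on single arrays. Without that block, limma passed 0 of the 9 genes and 7 of all genes (0.0445%), 5 higher and 2 lower, and 1190 genes had an unadjusted p under 0.05. The 1964 genes called with the block became 782 without the control array of HK-2 replicate 1, 1036 without that of HK-2 replicate 2, 1273 without that of RPTEC/TERT1 replicate 1 and 798 without that of RPTEC/TERT1 replicate 2. They became 1043 without the IL-1β array of HK-2 replicate 1 and 809 without that of RPTEC/TERT1 replicate 2.

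CDKN2B, the p15 gene next to CDKN2A, was detected with IL-1β on slides where it was not detected in control. Its probe lies at chr9:22008979-22009038. On the control arrays its level was at the floor of −8.60 on HK-2 replicate 1 and RPTEC/TERT1 replicate 2, −4.84 on HK-2 replicate 2 and −5.50 on RPTEC/TERT1 replicate 1, none of them well above background. With IL-1β it was −3.35, −3.00, −3.52 and −3.34 on HK-2 replicates 1 and 2 and RPTEC/TERT1 replicates 1 and 2, all well above background. The 4 IL-1β levels lay close together and above the control levels. CDKN2B met the filter only through the IL-1β arrays, so this gap is not read as support. On HK-2 replicate 2 the Empa array was well above background at −5.13, though the control array at −4.84 was not.

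The adjusted p of CDKN2B in limma was 0.00767, and no exact fold is given, since its size rests on the floor. Each control level was set at the higher of its own level and the lowest level of any probe well above background on its array. Against that, the IL-1β level was 5.32-fold on HK-2 replicate 1 and 3.58-fold on HK-2 replicate 2. It was 3.94-fold on RPTEC/TERT1 replicate 1 and 4.87-fold on RPTEC/TERT1 replicate 2. On HK-2 replicate 2 and RPTEC/TERT1 replicate 1 the control's own level was the higher, though not well above background. These are not minimum folds, since a probe above the lowest such level can still be undetected. On the control array of RPTEC/TERT1 replicate 2 that lowest level was −5.62, while TERT, at −4.23, was not well above background. With no filter on dim probes the adjusted p for CDKN2B, IL-1b minus control within slides, was 0.0379 in limma. Both adjusted p-values rest on control levels not well above background, and neither is read as support. The call was lost without the slide as a block, at an adjusted p of 0.456, and without the slide RPTEC/TERT1 replicate 2, at 0.0644.

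CDKN2A itself did not pass. Its brighter probe was higher with IL-1β on 4 of 4 slides, by 0.23 to 0.58 on the log2 scale, with a log2 fold change of 0.36 (SE 0.18) and an adjusted p of 0.232 in limma. The dimmer probe was higher by 1.28 on HK-2 replicate 1, 0.12 on HK-2 replicate 2, 0.37 on RPTEC/TERT1 replicate 1 and 1.74 on RPTEC/TERT1 replicate 2. When all probes were tested, that probe had a log2 fold change of 0.88 (SE 0.26) and an adjusted p of 0.0574. RB1 was higher on 4 of 4 slides by 0.05 to 0.60, and its log2 fold change of 0.24 (SE 0.17) had an adjusted p of 0.412.

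Of the p53 targets, TP53I3 fell on every slide. The IL-1β levels of its brighter probe were 1.52 on HK-2 replicate 1, −0.78 on HK-2 replicate 2, −0.73 on RPTEC/TERT1 replicate 1 and 1.55 on RPTEC/TERT1 replicate 2, which is 1.00, 0.64, 0.44 and 0.66 under the control array of the slide. Between slides these levels overlapped with those of control arrays, so that the difference shows only within slides. The log2 fold change was −0.68 (SE 0.16), with an adjusted p of 0.0235 in limma. It was 1 without the slide as a block.

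The call of TP53I3 was lost when single arrays were left out. The adjusted p was 0.0967 without the control array of HK-2 replicate 1, 0.0597 without that of HK-2 replicate 2 and 0.0877 without that of RPTEC/TERT1 replicate 2. It was 0.0799 without the IL-1β array of HK-2 replicate 1 and 0.0595 without that of RPTEC/TERT1 replicate 2. The second TP53I3 probe was also lower on 4 of 4 slides, with −0.65 (SE 0.19) on the log2 scale, but did not pass when all probes were tested, at an adjusted p of 0.059.

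SESN1 fell by 0.97 to 1.59 on the log2 scale on 4 of 4 slides. Its IL-1β levels were −2.68 on HK-2 replicate 1, −4.41 on HK-2 replicate 2, −3.69 on RPTEC/TERT1 replicate 1 and −3.08 on RPTEC/TERT1 replicate 2. The log2 fold change was −1.27 (SE 0.35), or 0.415-fold, with an adjusted p of 0.0471 in limma, close to the threshold. It was 0.676 without the slide as a block, 0.0873 with quantile normalization, 0.112 with normexp, 0.0752 in the authors' table and 0.12 with no filter on dim probes. The log2 fold change itself was −0.52 with normexp and −0.41 in the authors' table. Leaving out any array other than the Empa array of HK-2 replicate 1 ended the call. The adjusted p then was 0.153 without the control array of HK-2 replicate 1, 0.0872 without that of HK-2 replicate 2, 0.073 without that of RPTEC/TERT1 replicate 1 and 0.11 without that of RPTEC/TERT1 replicate 2. Without the IL-1β array of HK-2 replicate 1, HK-2 replicate 2, RPTEC/TERT1 replicate 1 or RPTEC/TERT1 replicate 2 it was 0.0701, 0.101, 0.0823 or 0.145. Without the Empa array of HK-2 replicate 2, RPTEC/TERT1 replicate 1 or RPTEC/TERT1 replicate 2 it was 0.0558, 0.0621 or 0.0647.

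CDKN1A was lower on 4 of 4 slides but with a wide spread, and did not pass. Its level with IL-1β was −2.17 on HK-2 replicate 1, −5.17 on HK-2 replicate 2, −4.97 on RPTEC/TERT1 replicate 1 and −2.89 on RPTEC/TERT1 replicate 2, and that of RPTEC/TERT1 replicate 1 was not well above background. The difference from control was −2.36 on HK-2 replicate 2, −0.29 on HK-2 replicate 1 and −0.64 on RPTEC/TERT1 replicate 2. On RPTEC/TERT1 replicate 1 it was −1.87 as computed, which is not exact, since the treated array was not well above background. The log2 fold change, which includes that array, was −1.29 (SE 0.51), with an adjusted p of 0.138 in limma. It ran from −1.80 to −0.86 with 1 array left out, and the value nearest to no change over all settings was −0.41.

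MDM2 gave probes that disagree. The probe used in the fit was lower on 4 of 4 slides, with a log2 fold change of −0.44 (SE 0.26) and an adjusted p of 0.295, which became 0.0368 without the Empa array of HK-2 replicate 1. A second probe, at chr12:69238891-69238950, was higher on 4 of 4 slides, by 0.38 (SE 0.18), with an adjusted p of 0.202 when all probes were tested. The remaining MDM2 probe was higher on 2 slides and lower on 2. No direction is therefore given for MDM2. GADD45A was higher on 3 of 4 slides, at 0.34 (SE 0.20) with an adjusted p of 0.3, and lower by 0.32 on RPTEC/TERT1 replicate 2. TERT was lower on 3 of 4 slides, at −0.30 (SE 0.20) with an adjusted p of 0.369.

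**Figure D3:**
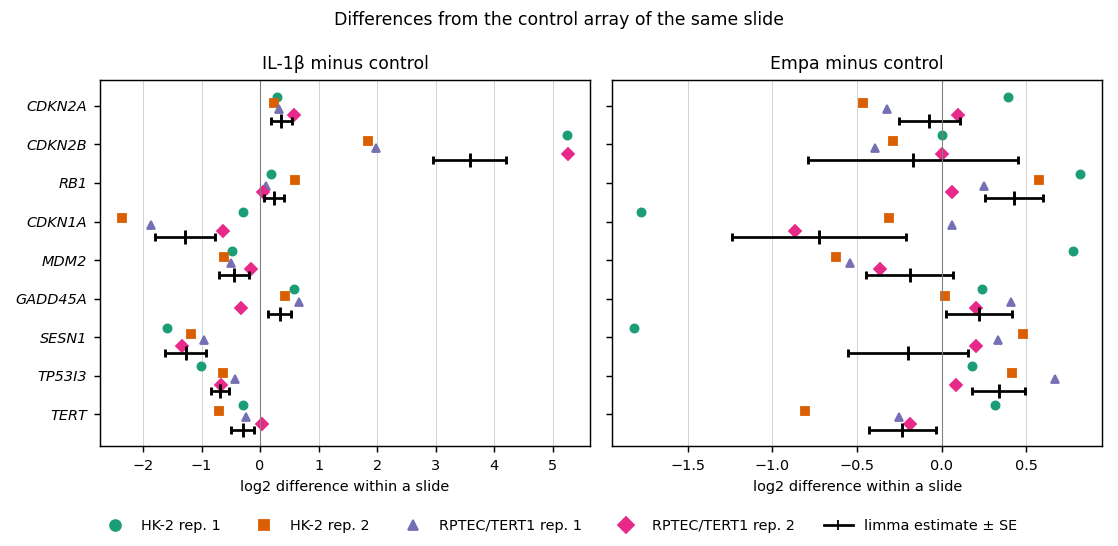
Log2 difference of the IL-1β (left) and Empa (right) array from the control array of the same slide, with 1 point per slide and the limma estimate with its standard error as a bar. With IL-1β, TP53I3 lies between −1.003 and −0.44 and SESN1 between −1.59 and −0.97 on the 4 slides, and the size for CDKN2B rests on the floor. With Empa, RB1 lies above 0 on 4 of 4 slides, between 0.06 and 0.82, without passing the test.

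No difference in response between the labelled lines was detected. The difference in IL-1β effect passed for 0 of the 9 genes and 0 of all genes in limma, or 0%, with 281 at an unadjusted p under 0.05, or 123 without the control array of RPTEC/TERT1 replicate 2 and 545 without that of RPTEC/TERT1 replicate 1. For SESN1 the effect was 0.24 (SE 0.72) higher in RPTEC/TERT1 on the log2 scale, with an adjusted p of 1, and errors of this size leave room for a difference.

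Some kidney markers also fell with IL-1β. Of the 8 proximal tubule markers tested 3 fell, 0 rose and 5 did not pass in limma, where 7.76% of all genes were lower, with a median log2 fold change of −0.69, and of the 8 kidney epithelium markers tested 3 fell, 0 rose and 5 did not pass, with a median of −0.21. The summed signal of the proximal tubule markers was 10.3, 7.79, 7.56 and 10.0 on HK-2 replicates 1 and 2 and RPTEC/TERT1 replicates 1 and 2, against 19.6, 16.3, 14.7 and 18.2 in control. The distal nephron sum, with SLC12A1 the brightest probe, was 0.753 on HK-2 replicate 1 and 0.735 on RPTEC/TERT1 replicate 2, against 21.1 and 32.1 in control, and none of that list was tested. The leukocyte sums with IL-1β were 2.06, 1.88, 2.34 and 1.55 on HK-2 replicates 1 and 2 and RPTEC/TERT1 replicates 1 and 2, higher than in control on 2 slides and lower on 2, and 0 of 3 tested leukocyte markers passed. Without the slide as a block 0 of these markers passed in limma, and their part in the IL-1β results of the 9 genes was not tested.

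Other p53 target genes were tested as a list of 35. With IL-1β, 2 of them rose, 9 fell and 24 did not pass in limma, where 4.73% of all genes were higher and 7.76% lower, and the median log2 fold change was −0.18, against −0.10 over all genes. FAS, a death receptor gene, rose by 1.04 (SE 0.15) with an adjusted p of 0.00347, and PLK3, a stress kinase gene, by 1.00 (SE 0.18) with 0.00881, each on 4 of 4 slides. CYFIP2, an actin regulator, fell on 4 of 4 slides with −1.87 (SE 0.33) and an adjusted p of 0.00834. The TRAIL decoy receptor gene TNFRSF10C, was lower on 4 of 4 slides with an adjusted p of 0.00775, and no exact fold is given, since it was well above background on only 7 arrays. The authors' table ended that call at 0.0635. BTG2, an antiproliferative gene, had −1.18 (SE 0.27) and 0.0227, also on 4 of 4 slides. The other genes that fell were the DNA repair genes DDB2 and XPC, FDXR, TP53INP1, PHLDA3 and RPS27L.

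The counts of this list were 4 higher and 9 lower with normexp. Without the slide as a block 0 of the 35 passed in limma. Leaving out 1 slide ended the call of PLK3 at up to 0.0771, of CYFIP2 at up to 0.063, of TNFRSF10C at 0.0538 and of BTG2 at up to 0.155. The call of BTG2 was also lost with no filter on dim probes (0.0611) and without the control array of HK-2 replicate 1 (adjusted p of 0.0863), the IL-1β array of HK-2 replicate 1 (0.0609), the control array of RPTEC/TERT1 replicate 2 (0.0852) or the IL-1β array of RPTEC/TERT1 replicate 2 (0.0872). SPATA18 and EDA2R did not pass the filter, and PERP, PMAIP1 and IER5 lacked a value on at least 1 array.

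**Figure D4:**
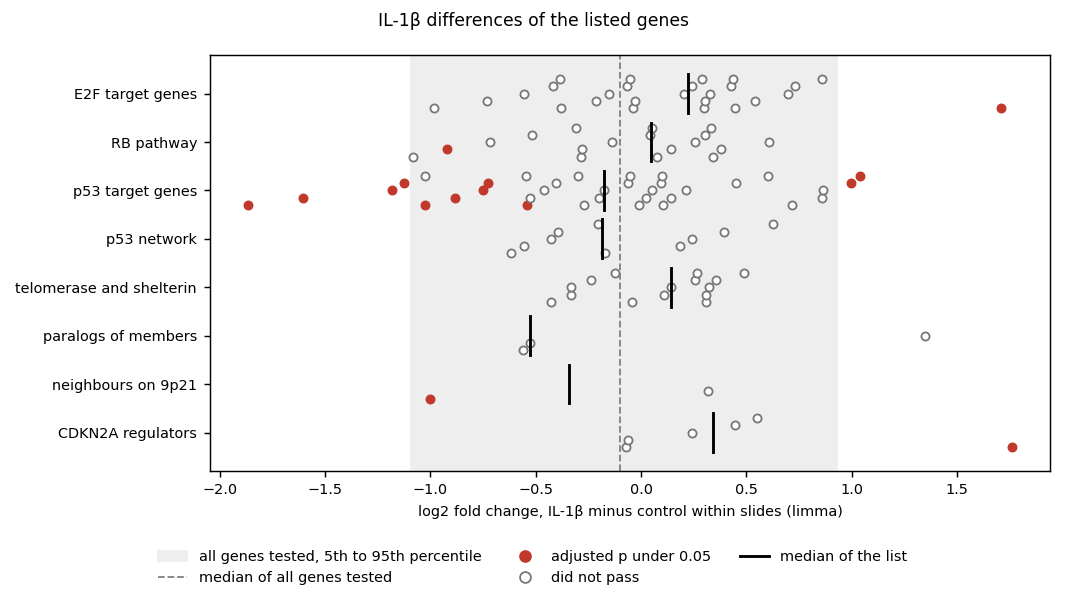
Limma log2 fold change of IL-1β against control within slides for every tested gene of the lists, 1 point per gene, filled where the adjusted p was under 0.05. Black bars are list medians, the dashed line is the median of all genes at −0.10, and the grey band runs from their 5th to their 95th percentile, −1.09 to 0.93. Of the p53 targets, 9 filled points lie left of 0 and 2 right of it.

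The other lists are given beside the 12.5% of all genes that passed, against which no list was tested. Of 10 genes of the p53 network 0 passed in limma, with a median log2 fold change of −0.19, and 2 were called lower in the authors' table. CHEK1 had the largest value, 0.62 (SE 0.32) with an adjusted p of 0.237. TP63 and TP73 of that list were too dim. In the RB pathway 1 of 18 passed, the inhibitor gene CDKN1C with −0.92 (SE 0.26) and an adjusted p of 0.0467, lower on 4 of 4 slides. The list median was 0.05, and 2 of 19 were called lower in the authors' table. The call of CDKN1C was lost with 10 of the 12 arrays left out in turn, at adjusted p of up to 0.141, and with no filter on dim probes, at 0.101. Of 26 E2F targets, with a median of 0.22, 1 passed, the mitotic checkpoint gene BUB1. It was higher on 4 of 4 slides, with an adjusted p of 0.0424 in limma. BUB1 was well above background on only 9 arrays, so its computed value of 1.71 (SE 0.46) is not read as an exact fold. Quantile normalization ended that call at 0.0526, the authors' table at 0.0997 with 0.73 on the log2 scale, no filter on dim probes at 0.118, and the loss of any of 6 single arrays at up to 0.143. In the telomerase and shelterin list 0 of 15 passed, with a median of 0.14, and 1 was called higher with normexp. WRAP53, which guides telomerase within the nucleus, had 0.49 (SE 0.33) with an adjusted p of 0.375.

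Around CDKN2A and CDKN2B, DMRTA1 had −1.002 (SE 0.21) with an adjusted p of 0.0181 and was lower on 4 of 4 slides, while MTAP did not pass. Normexp ended the call of DMRTA1 at 0.0822, with −0.29 on the log2 scale, as did the authors' table at 0.113, also with −0.29, and so did leaving out the control array of HK-2 replicate 1, RPTEC/TERT1 replicate 1 or RPTEC/TERT1 replicate 2, at 0.0622, 0.0568 and 0.0705. CDKN2B-AS1, IFNE and ELAVL2 were too dim, and KLHL9 lacked a value on at least 1 array. Of 6 regulators linked to CDKN2A, with a list median of 0.34, 1 passed, the transcription factor gene ETS1. It was higher on 4 of 4 slides, with an adjusted p of 0.0362 in limma. ETS1 was well above background on only 9 arrays, so its computed value of 1.76 (SE 0.45) is not read as an exact fold. Its call was lost with 7 of 12 arrays left out in turn, at up to 0.109, and with no filter on dim probes, at 0.105, and its log2 fold change was 0.59 in the authors' table. ID1 lacked a value on at least 1 array. Of the 3 paralogs tested 0 passed, with a median of −0.53, and GADD45G had 1.35 (SE 0.41) with an adjusted p of 0.0652. GADD45G passed with quantile normalization, at 0.0477, with a filter on all arrays, at 0.0458, without the IL-1β array of RPTEC/TERT1 replicate 1, at 0.0272, and without that slide, at 0.0424. SESN3 was too dim. Without the slide as a block 0 genes of these lists passed in limma.

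Each Empa array was set against its slide's own control in the same fit, so that both treatments share their control arrays. Of the 9 genes 0 passed the adjusted threshold in limma, and of all genes 1 did, a share of 0.00636%, while 1894 had an unadjusted p under 0.05. The 1 gene was DHRS2, a dehydrogenase gene named here after its values were seen, which was higher with an adjusted p of 0.0196. It was well above background on 7 of 12 arrays, so no exact fold is given. No gene passed with no filter on dim probes, without the slide as a block, where 204 had an unadjusted p under 0.05 in limma, or without any 1 of 9 single arrays.

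Of the RB pathway genes among the 9, RB1 was higher on every slide. Its Empa levels were 2.24 on HK-2 replicate 1, 2.12 on HK-2 replicate 2, 1.71 on RPTEC/TERT1 replicate 1 and 1.85 on RPTEC/TERT1 replicate 2. These lay above the control array on 4 of 4 slides, by 0.06 to 0.82, and the log2 fold change was 0.43 (SE 0.17), with an adjusted p of 0.381 in limma. CDKN2A had −0.07 (SE 0.18), higher on 2 slides and lower on 2. CDKN2B was well above background on 1 Empa array, that of HK-2 replicate 2, at −5.13, and no fold is given for it.

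Of the p53 targets, TP53I3 was higher on 4 of 4 slides at its brighter probe, by 0.09 to 0.67, with a log2 fold change of 0.34 (SE 0.16) and an adjusted p of 0.422. Its second probe was higher on 2 slides and lower on 2. GADD45A was higher on 4 of 4 slides, by 0.02 to 0.41, with 0.22 (SE 0.20) and an adjusted p of 0.642. CDKN1A was lower on 3 of 4 slides, by up to 1.78 on HK-2 replicate 1, with −0.72 (SE 0.51) and an adjusted p of 0.567. With 1 array left out this value ran from −1.08 to −0.21.

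SESN1 was lower by 1.82 on HK-2 replicate 1 and higher by 0.48, 0.33 and 0.21 on HK-2 replicate 2, RPTEC/TERT1 replicate 1 and RPTEC/TERT1 replicate 2. Its log2 fold change of −0.20 (SE 0.35) turned to 0.29 without the Empa array of HK-2 replicate 1 and to 0.12 without the control array of that slide. The MDM2 probe of the fit was higher by 0.78 on that slide and lower by 0.36 to 0.62 on the other 3, with −0.19 (SE 0.26) over all slides. A second MDM2 probe was higher on both HK-2 slides and lower on both RPTEC/TERT1 slides, so no direction is given. TERT had −0.23 (SE 0.20), lower on 3 of 4 slides. The difference between the lines in the Empa effect passed for 0 of the 9 genes and 0 of all genes in limma, or 0%, with 162 at an unadjusted p under 0.05, which became 2094 without the Empa array of HK-2 replicate 2.

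With Empa 0 genes of the 8 lists passed in limma. The median log2 fold change of the E2F targets was 0.45, against −0.02 over all genes, and 3 of 26 lay under 0. CDK1, the kinase gene of mitotic entry, had the largest of these values, 1.08 (SE 0.29) with an adjusted p of 0.272. The list medians were 0.05 for the p53 network, −0.07 for the p53 targets, 0.17 for the RB pathway and −0.07 for telomerase and shelterin. The largest value was −1.34 (SE 0.26) in the RB pathway, for CDKN1C, and −0.97 (SE 0.36) in the telomere list, for POT1. GADD45G, DMRTA1 and EZH2 led the 3 small lists at 0.44, 0.36 and 0.62. With 1 array left out these values ran from 0.08 to 0.76, 0.17 to 0.46 and 0.44 to 0.78, and that of POT1 from −1.20 to −0.49. Of the tested cell type markers 0 passed, with medians of −0.47 for proximal tubule, −0.34 for kidney epithelium, 0.92 for podocyte and −0.45 for fibroblast. The proximal tubule sums were 27.2, 9.01, 8.44 and 19.8 on HK-2 replicates 1 and 2 and RPTEC/TERT1 replicates 1 and 2, and the fibroblast sums 0.246, 6.42, 4.90 and 0.0831. The part of these markers in the Empa values was not tested.

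The promoters of 8 of the 9 genes were found in the RefSeq table on GRCh38.p14, with GADD45A missing, and the 250 bases before each of their 14 starts were searched on both strands. The p53 decamer consensus lay before 1 start each of SESN1 and RB1, and 5.57% of all 35116 promoter windows hold it. The E2F motif TTTCGCGC or TTTGGCGC lay before MDM2 starts, with a share of 0.968%, and the AP-1 motif TGANTCA before MDM2 and RB1 starts, with 6.57%. The consensus of NF-κB, which acts downstream of the IL-1β receptor, lay before none of the 14 starts, CDKN2B included, and in 5.21% of all windows. A match is not a site in use, and no match says only that these letters are not in the window. The site of SESN1, a p53 target that fell with IL-1β, is shown with the decamer in capitals, which lies 49 to 40 bases before 1 of its 3 starts.
SESN1, GRCh38.p14, chr6:109009018-109009047, minus strand: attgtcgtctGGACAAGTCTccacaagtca

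The genes with the pattern most like each of the 9 were sought by the root mean square difference over the 12 arrays, after each gene was centred, among 14003 tested genes with a range of at least 1 on the log2 scale. For CDKN2A these were PLEKHG4, at 0.25, and SCARB1, at 0.28, while CDKN2A itself had a standard deviation of 1.89 over the arrays. For TP53I3 they were SMO and ZBTB44, both at 0.23, with a standard deviation of 1.32 for TP53I3. For SESN1 the nearest was KLHDC8B, at 0.31. CDKN1A was nearest to TRIOBP, at 0.33, and UNC13B, at 0.42, and GADD45A to LSG1, at 0.19, and TRIM32, at 0.20. MDM2 was nearest to the transcripts ENST00000390285 and AK097351, RB1 to NDFIP2 and ANO6, and TERT to LOC145845 and ZNF317, at 0.16 to 0.19, and RB1 and TERT varied little themselves, with standard deviations of 0.27 and 0.39. CDKN2B, well above background on 5 arrays, was left out.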

How the data were processed

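The authors deposited scanner files for 12 one-color Agilent arrays, whose values are, per the file headers, intensity in signal units, background-subtracted and detrended within the array and not normalized across arrays. A table of log2 values was also deposited by the authors, described as quantile-normalized. Its column medians were 8.314 for each of the 3 arrays of HK-2 replicate 1, 7.039, 7.045 and 7.047 (control, IL-1β, Empa) for HK-2 replicate 2, 6.675, 6.668 and 6.673 for RPTEC/TERT1 replicate 1, and 6.653, 6.649 and 6.649 for RPTEC/TERT1 replicate 2. Direction and log scale are known, but the centring of this table is not, and it served as an alternative only.

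Groups were taken from the sample titles. Control and outlier spots were left out, repeated spots were averaged, and probes lacking a value on any array were dropped. Signals were scaled to the 75th percentile of the array, with a floor of 1 signal unit, and put on the log2 scale. On an array 56.3% to 66.2% of spots were well above background. With 1 probe per gene, all genes were fitted with limma 3.58.1 (R 4.3.3) with slide as a fixed block and treatment (6 residual degrees of freedom), and by the 6 groups without a block for the lines, with Benjamini-Hochberg adjustment and a threshold of 0.05. Arrays of the same slide deviated alike from their group means, with r of 0.592 to 0.906, so the arrays of a slide are paired, while same-numbered arrays of both lines correlated at −0.788 to −0.756. The procedure was tested on simulated data. Figures were drawn with matplotlib 3.10.9.

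The 9 genes, the 8 gene lists and the lists of markers for 7 cell types were chosen with earlier results of these data known. A rule set the genes named: for each list and treatment up to 3 genes higher and 3 lower with the largest change past the threshold, or the largest value where none passed, the 2 widest control ranges, and the 2 most like patterns for each of the 9 genes. Of the genes this rule picked, 2 are not named. DHRS2, the genes that failed the filter and the other p53 targets that fell were added after their values were seen.

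Alternatives were no block, other blocks for the lines, quantile normalization, normexp with an offset of 50 and quantile normalization, the authors' table, no filter, a filter on all arrays, every probe, outlier spots kept, a floor of 5 signal units, each array or slide left out, the slides of 1 line or replicate number alone, and the methods' t-test. A crossed pairing of the slides as a block was added after seeing the data.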

Additional observations from a re-analysis of the deposited data

How the results depend on the processing

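Of 24 results on the 9 genes that did not pass, recomputed under 673 settings in all, 633 kept their direction and side of the threshold, 2 passed (1 of them RB1 with Empa in the methods' t-test, without adjustment) and 38 changed sign. The 3 that passed were recomputed under 92 settings, of which 44 kept the call and 48 lost it, with no change of sign. CDKN2B, which met the filter through the IL-1β arrays alone, kept its call in 23 settings and lost it in 7. Its kept calls are not read as support. SESN1 kept its call in 6 and lost it in 25, and TP53I3 kept its call in 15 and lost it in 16. For the listed genes, 157 of 276 settings kept the 9 calls and 119 lost them, and of 338 settings for the 11 named without a call 5 gained one. Unless noted, the cause was not tested.

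The 1964 IL-1β calls became 7 without the slide as a block, 1063, 1089, 445 and 882 without the slides HK-2 replicate 1, RPTEC/TERT1 replicate 1, RPTEC/TERT1 replicate 2 and HK-2 replicate 2, 34 with the HK-2 slides alone, and 0 with the RPTEC/TERT1, replicate 1 or replicate 2 slides alone, where fewer arrays were fitted. They were 42 with the methods' t-test after adjustment, and 782 to 2944 with 1 array left out. The 1 Empa call became 0 without a block, with normexp, in the authors' table, without a filter, with the filter on all arrays, with a floor of 5, without each slide, and with the RPTEC/TERT1, replicate 1 or replicate 2 slides alone. It became 3 with the HK-2 slides alone, 2 with the methods' t-test after adjustment, 624 without adjustment, and 0 to 1 with 1 array left out. The 0 calls between the lines became 5 of 25622 genes without a filter, and the median difference of all genes moved to −0.648 in the authors' table. Differences between the lines in either effect gave 0 calls in all settings run.

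Signs changed with Empa for CDKN2A without the slide RPTEC/TERT1 replicate 1 (0.01), without HK-2 replicate 2 (0.0569) and in replicate 1 (0.0372), for MDM2 in HK-2 (0.0791) and replicate 1 (0.12), for TERT in replicate 1 (0.0338), and for SESN1 in the authors' table (0.0692), without the slide HK-2 replicate 1 (0.34), in RPTEC/TERT1 (0.27) and in replicate 2 (0.34). Between the lines they changed for RB1 over the 3 treatments (−0.15) and in the authors' table (−0.22), for SESN1 over the 3 treatments (0.31) and with quantile normalization (0.0272), and for GADD45A in the authors' table (−0.33). In the authors' table the median difference between the lines over all genes was itself −0.648. With 1 array left out, a lone array being assumed to vary like the other groups, the Empa values ran from −0.24 to 0.0359 for CDKN2A, −0.48 to 0.14 for CDKN2B and −0.41 to 0.29 for SESN1. Those between the lines ran from −2.20 to 1.64 for CDKN2A, −2.21 to 1.55 for CDKN2B, −0.79 to 0.14 for CDKN1A, −0.0219 to 0.30 for RB1, −0.76 to 0.0258 for TERT, −1.15 to 0.99 for SESN1, −1.56 to 1.11 for TP53I3 and −0.53 to 0.66 for GADD45A. The CDKN2B values are fitted differences from control arrays at or near the floor and are not read as folds.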
